A study of Mus musculus with 6 samples.

Results

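Interleukin-6 family cytokines are secreted proteins, most of which act through receptors sharing 1 signalling chain, gp130, which the gene Il6st encodes. Here 10 genes of that system were followed in mouse dermal fibroblasts: the ligands Il6, Lif and Il11, the receptors Il6ra, Il11ra1, Il6st, Lifr and Osmr, the transcription factor Stat3 and the feedback inhibitor Socs3. A probe set, the unit that an Affymetrix array reports, was taken as a member when the platform annotation gave it exactly 1 gene symbol and that symbol was one of the 10. This found 23 probe sets for 9 genes among 45037 probe sets in all, and the annotation used here held none for Il11ra1, which was not analysed.

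The cells were primary dermal fibroblasts grown out of the skin of B6 mouse pups aged 0 to 2 days in the sample labels (0 to 3 days in the series text), of mixed sex, and kept to passage 6 in medium with fetal bovine serum. In the Et1 group 3 cultures received 100 nM synthetic endothelin 1, a peptide hormone first known from blood vessels, for 24 hours, and in the control group 3 cultures received no addition. RNA was hybridised to Mouse430_2 arrays, 1 array per culture, and the number of arrays limits the precision of every comparison. The labels call the arrays biological replicates without naming the animals, so a p-value measures the spread between these arrays.

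Binding of interleukin-6 to Il6ra, of interleukin-11 to Il11ra1, of LIF to Lifr or of oncostatin M to Osmr brings gp130 into a complex whose Janus kinases phosphorylate STAT3. Phosphorylated STAT3 enters the nucleus and raises transcription of its targets, among them Socs3, whose protein binds gp130 and its kinases and damps the signal. In skin, fibroblasts are a known source of interleukin-6 and LIF in inflammation and repair, and interleukin-11 and oncostatin M are studied for their part in fibrosis.

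The Il6 gene carries the clearest difference described below, and its upstream sequence is shown for that reason. In RefSeq (build GRCm38.p6) the 250 bases before its annotated start lie at chr5:30012864-30013113 on the plus strand. Capitals mark the matches to 5 short motifs searched on both strands.
Il6 upstream sequence, 5′ to 3′: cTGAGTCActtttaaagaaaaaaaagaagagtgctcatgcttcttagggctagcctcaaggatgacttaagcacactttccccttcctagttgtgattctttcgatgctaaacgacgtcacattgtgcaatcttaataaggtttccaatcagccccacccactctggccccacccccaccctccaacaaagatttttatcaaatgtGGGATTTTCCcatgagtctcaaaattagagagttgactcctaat
The motifs were TTCNNNGAA for STAT proteins, GGG, any 2 bases and TTTCC for NF-kappaB, TGANTCA for AP-1, TGACGTCA for CREB and ATF proteins, and TATAAA for the TATA box. The Il6 sequence held TGAGTCA, which matches the AP-1 letters on both strands and begins 249 bases before the start, and GGGATTTTCC, which matches the NF-kappaB letters and covers bases 44 to 35 before the start. Of 32851 RefSeq upstream windows of this length, 6.75% held the AP-1 letters and 1.41% the NF-kappaB letters.

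All 10 genes had an upstream window in RefSeq, 13 windows in all, and 3 other genes had a match. Socs3 had the one STAT match, and it is shown with its neighbouring bases, with the matching letters in capitals, at chr11:117969512-117969520 on the minus strand.
Socs3, STAT match: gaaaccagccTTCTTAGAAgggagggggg
Lif, AP-1 match at chr11:4257340-4257346, plus strand: cagtcagctgTGACTCAggccatagtg
Il11, AP-1 match at chr7:4778233-4778239, minus strand: ggagggagggTGAGTCAggatgtgtca
The STAT letters stood in 7.02% of all windows, and the Il11 match belonged to 1 of its 2 annotated starts. A match of letters describes the sequence and does not show that a factor binds there.

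Signals below are the deposited MAS5 intensities after scaling each array to a common 2% trimmed mean of 139, from deposited trimmed means of 91.7 to 179. Testing was limited to the 22519 probe sets whose scaled signal averaged at least 41.0, the median of all probe sets. Each was compared between Et1 and control arrays with limma on log2 signals, with p-values adjusted by the Benjamini-Hochberg method over all 22519 and a threshold of 0.05. The poly(A) spike-in control probe sets split the arrays: their mean log2 signal was 3.45 to 3.57 on Et1 replicate 2 and control replicates 1 and 2, the low set, and 4.75 to 5.64 on Et1 replicates 1 and 3 and control replicate 3, the high set. Whether spike-in RNA was added was not established. Of 10 fibroblast markers 9 passed the filter, among them Col1a1, Col1a2 and Vim with mean signals of 3988, 5209 and 8781, while Lum had 38.7. Passing the filter does not single out fibroblasts, since 5 of 5 melanocyte and 5 of 5 smooth muscle and pericyte markers also passed. The melanocyte markers summed to 292 to 304 in Et1 arrays and 256 to 324 in control arrays, and the smooth muscle and pericyte markers to 443 to 727 in Et1 arrays and 595 to 1168 in control arrays.

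Of the 23 member probe sets, 17 passed the filter, with at least 1 for each of the 9 genes, and 1 of the 17 was called, that of Il6, which fell. Among all 22519 tested probe sets limma called 78, a share of 0.346%. Of these, 22 (0.0977% of those tested) were higher and 56 (0.249%) lower in Et1 arrays; centring arrays on their median instead gave 7 higher and 37 lower. The 3 Et1 signals lay below all 3 control signals for 3 of the 17 probe sets, those of Il6 and 2 of Osmr, against 8.11% of all tested probe sets. No tested member probe set had all Et1 signals above all control signals, against 9.47% of all tested. At an unadjusted limma p under 0.05 there were 7 member probe sets, all 7 lower in Et1 arrays, against 12.3% of all tested in either direction and 6.38% lower. The median log2 fold change of the 17 was -0.52, beside 0.03 for all tested probe sets; several of the 17 belong to the same gene and do not count as separate results.

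**Figure D1:**
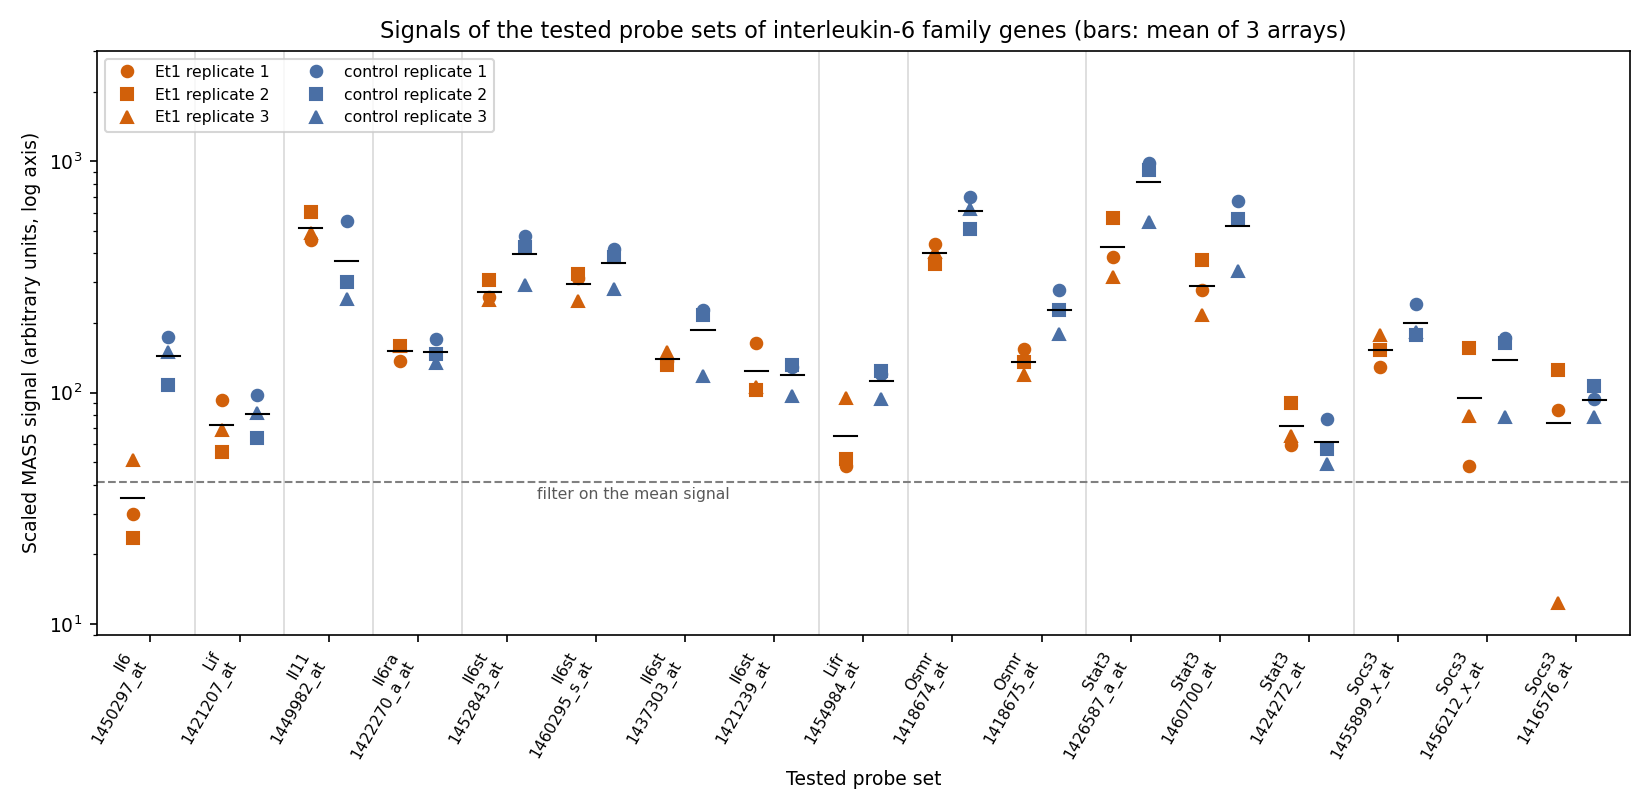
Scaled MAS5 signals (vertical log axis, arbitrary units) of the 17 tested probe sets, with Et1 arrays as orange and control arrays as blue symbols shaped by replicate number, bars at the mean of 3 arrays, and a dashed line at the filter on the mean signal of 41.0. The 3 Et1 signals lie below the 3 control signals for Il6 and for both Osmr probe sets, and the groups overlap for the other 14.

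Among the ligands, Il6, the cytokine that gives the family its name and drives acute-phase and inflammatory responses, was measured by 1 probe set, 1450297_at. It read 29.9, 23.6 and 51.1 in Et1 replicates 1, 2 and 3, against 174, 108 and 150 in control replicates 1, 2 and 3. Every Et1 signal was below every control signal, and 2 of the 3 Et1 signals were under the filter level of 41.0, so the probe set passed the filter through its control signals. The means were 34.9 ± 14.4 in Et1 arrays and 144 ± 33.2 in control arrays (SD, n = 3 each). The log2 fold change of Il6 was -2.10 (SE 0.33, 95% confidence interval -2.85 to -1.34, limma adjusted p = 0.0485), which is an Et1 level 0.234 times the control level.

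The Il6 difference was -2.54 on the log2 scale in the low spike-in set and -1.94 in the high set. Its direction there was fixed in advance, since no Et1 signal reached a control signal, and each set had a single array of one group. Blocking on the set gave -2.24 (limma adjusted p = 0.00592), in a fit that called 3.85% of all tested probe sets, beside 0.346% without the block. The reported call of Il6 lay close to the threshold and was lost when any single array was left out. The adjusted p was then 0.163 without Et1 replicate 1, 0.0556 without Et1 replicate 2, 0.0925 without Et1 replicate 3, 0.291 without control replicate 1, 0.162 without control replicate 2 and 0.0618 without control replicate 3, with log2 fold changes from -2.41 to -1.85. With 50 added to each signal before log2, which damps differences between dim signals, the log2 fold change was -1.19 (limma adjusted p = 0.0362). In RNA from a whole culture, fewer cells that make a transcript and less of it per cell cannot be told apart.

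Markers of leukocytes, which also make interleukin-6, were read beside this. Ptprc, the pan-leukocyte marker, and Itgam, a myeloid integrin, had mean signals of 20.7 and 12.8, below the filter, and Cd3e, of T cells, had 17.0. The summed signals of 7 macrophage markers, Ptprc and Itgam among them, were 399 to 497 in Et1 arrays and 340 to 447 in control arrays. The 5 above the filter were Csf1r, Adgre1, Lyz2, Mrc1 and Cd68, with mean signals of 155, 66.9, 57.6, 53.4 and 48.2. The summed signals of 5 mast cell markers were 127 to 160 in Et1 arrays and 164 to 185 in control arrays, without overlap. Among single tested probe sets 8.11% had such a separation in this direction. The 2 above the filter, Cpa3 and Cma1, had log2 fold changes of -0.36 and 0.08 (limma adjusted p = 0.625 and 0.912). Mcpt4, Tpsb2 and Kit were dim, with mean signals of 10.8, 8.32 and 13.0. The 10 fibroblast markers summed to 15875 to 27704 in Et1 arrays and 22196 to 36456 in control arrays, ranges that overlap, and 0 of them were called by limma at an adjusted p of 0.05. Their log2 fold changes ran from -1.26 for Col3a1 to 0.02 for Vim, with -0.26 for Dcn and -0.28 for Twist2. Thy1 and Pdgfrb, surface proteins of fibroblasts, were among the lower ones, at -1.18 and -1.14 (limma adjusted p = 0.244 and 0.0615). The part of these markers in the values of the interleukin-6 family genes was not tested.

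Lif, a cytokine that binds Lifr and gp130 and is known for holding mouse embryonic stem cells undifferentiated, read 93.3, 55.6 and 69.2 in Et1 replicates 1, 2 and 3 in probe set 1421207_at. The control replicates 1, 2 and 3 read 97.9, 63.7 and 81.5. The groups overlapped almost throughout, with replicate 1 highest and replicate 2 lowest in both, and the log2 fold change was -0.17 (SE 0.27, 95% confidence interval -0.78 to 0.44, limma adjusted p = 0.834). Leaving out 1 Et1 array gave -0.36 for replicate 1 and 0.0093 for replicate 2, and leaving out 1 control array gave -0.02 for replicate 1 and -0.33 for replicate 2. The other Lif probe set, 1450160_at, read 1.96 to 15.3 in Et1 arrays and 10.2 to 30.6 in control arrays, below the filter, and was not tested.

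Il11, a cytokine of the same family that acts on stromal cells, was measured by probe set 1449982_at. It read 455, 603 and 487 in Et1 replicates 1, 2 and 3, against 553, 299 and 254 in control replicates 1, 2 and 3. Control replicate 1 lay within the Et1 range and the other 2 control arrays below it. Il11 had a log2 fold change of 0.56 (SE 0.28, 95% confidence interval -0.09 to 1.20, limma adjusted p = 0.471), so an increase was not shown, and the interval reaches an increase of 1.20 on the log2 scale. The value depended on single control arrays, at 0.89 without control replicate 1 and 0.33 without control replicate 3. The difference was 0.57 in the low and 0.89 in the high spike-in set, and 0.73 when blocked on the set (limma adjusted p = 0.0912). The 3 ligands therefore had log2 fold changes of -2.10 for Il6, -0.17 for Lif and 0.56 for Il11; differences between genes were not tested.

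**Figure D2:**
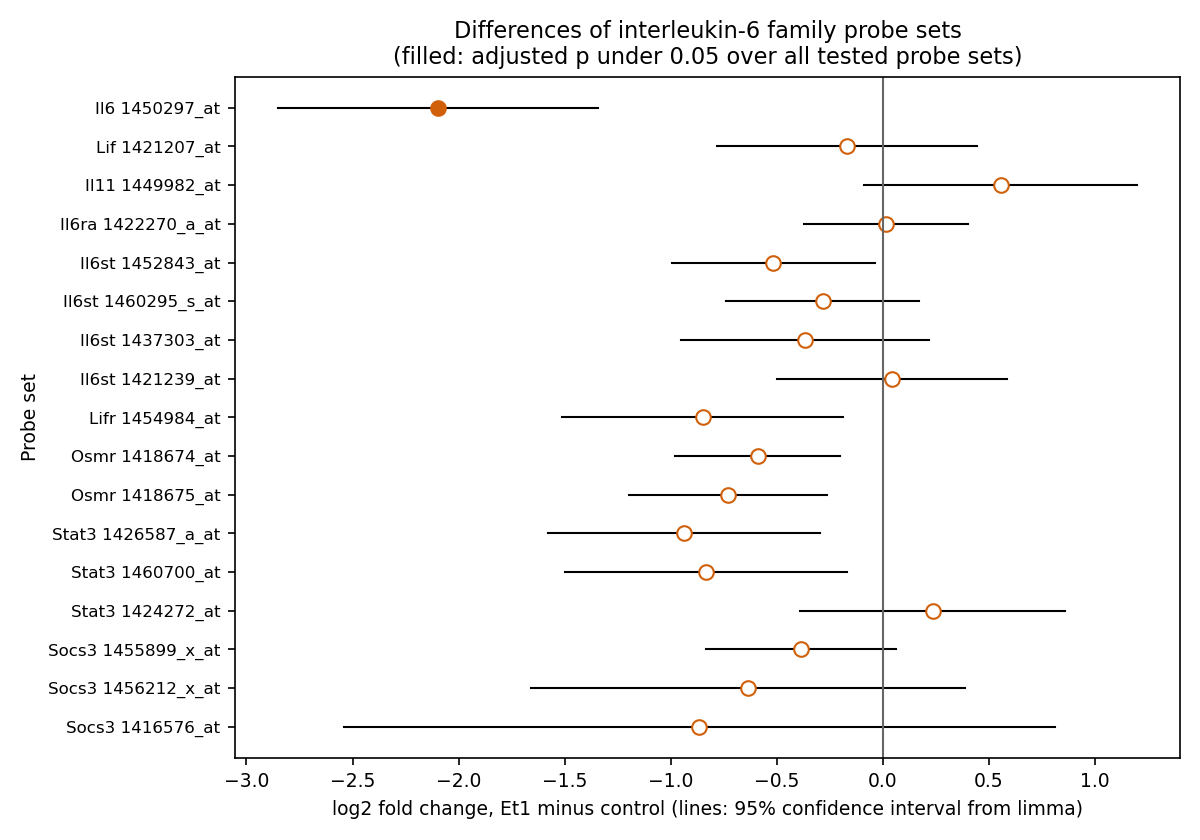
The log2 fold change, Et1 minus control (horizontal axis), of each of the 17 tested probe sets, with lines for the 95% confidence interval from limma and a filled symbol where the adjusted p over all tested probe sets was under 0.05. Il6 at -2.10 is the one filled symbol, Il11 at 0.56 is the highest value, and the intervals of Osmr, Lifr, 2 probe sets of Stat3 and 1 of Il6st lie below 0 without passing the adjusted threshold.

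Among the receptors, Il6ra, the chain that binds interleukin-6 itself, differed little. Probe set 1422270_a_at read 137, 160 and 159 in Et1 replicates 1, 2 and 3, against 170, 147 and 135 in control replicates 1, 2 and 3. The groups covered nearly the same range, and the log2 fold change was 0.014 (SE 0.17, 95% confidence interval -0.37 to 0.40, limma adjusted p = 0.982). The interval leaves room for a decrease of up to -0.37 or an increase of up to 0.40 on the log2 scale. The other Il6ra probe set, 1452416_at, was dim, at 7.94 to 32.9 in Et1 arrays and 4.92 to 24.9 in control arrays, and was not tested.

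Il6st, the gene of gp130, had 4 probe sets, all tested and none called. Probe set 1452843_at, the one with the highest mean signal, read 260, 308 and 252 in Et1 replicates 1, 2 and 3, against 474, 426 and 291 in control replicates 1, 2 and 3. Et1 replicate 2 lay above control replicate 3 and all other Et1 signals below all controls, for a log2 fold change of -0.52 (SE 0.21, limma adjusted p = 0.372). Probe sets 1460295_s_at and 1437303_at had log2 fold changes of -0.28 and -0.37, and 1421239_at had 0.043, with adjusted p-values from 0.602 to 0.959 in limma. The probe sets thus differed in direction, and control replicate 3 gave the lowest control signal in each of the 4. Inside the spike-in sets the difference of 1452843_at was -0.55 in the low and -0.19 in the high set, and that of 1437303_at was -0.76 and 0.28. Without control replicate 3 the values of 1460295_s_at, 1437303_at and 1421239_at were -0.45, -0.67 and -0.10, and without control replicate 1 they were -0.17, -0.20 and 0.11. That of 1460295_s_at was also -0.16 without Et1 replicate 3, that of 1437303_at was -0.23 without control replicate 2, and that of 1421239_at ran from -0.18 without Et1 replicate 1 to 0.17 without Et1 replicate 2.

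Lifr, the receptor chain of LIF, had 1 of 3 probe sets above the filter. Probe set 1454984_at read 48.3, 51.7 and 95.1 in Et1 replicates 1, 2 and 3, against 120, 124 and 93.4 in control replicates 1, 2 and 3. Et1 replicate 3 stood at the level of control replicate 3, and the other Et1 signals were below all controls. Its log2 fold change was -0.85 (SE 0.29, 95% confidence interval -1.51 to -0.19, limma adjusted p = 0.286), and -0.52 with 50 added to each signal. It was -1.24 in the low and -0.46 in the high spike-in set. The 2 other probe sets, 1425107_a_at and 1450207_at, had mean signals of 23.0 and 16.9 and were not tested.

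Osmr, the oncostatin M receptor chain, which is known to be made by fibroblasts, had 2 tested probe sets with no overlap between the groups. Probe set 1418674_at read 439, 361 and 405 in Et1 replicates 1, 2 and 3, against 698, 508 and 619 in control replicates 1, 2 and 3. Probe set 1418675_at read 154, 136 and 119 in the same Et1 arrays and 278, 226 and 180 in the same control arrays. Both probe sets put every Et1 array below every control array. Taken singly, 8.11% of all tested probe sets had this pattern, and the share of genes with 2 such probe sets was not counted. Osmr had log2 fold changes of -0.59 (SE 0.17, 95% confidence interval -0.98 to -0.20) and -0.73 (SE 0.20, 95% confidence interval -1.20 to -0.26), with limma adjusted p = 0.214 and 0.203, so neither was called.

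Since the groups did not overlap, the Osmr difference had to be below 0 within each spike-in set. It was -0.72 in the low and -0.55 in the high set for 1418674_at and -0.89 and -0.41 for 1418675_at. Blocked on the set, 1418674_at was called at -0.64 (limma adjusted p = 0.0364) and 1418675_at was not (adjusted p = 0.0811); over all tested probe sets that fit called 3.85%, and 2.47% as lower. Over the other settings tried the adjusted p of 1418674_at ran from 0.0513 to 0.714. The third Osmr probe set, 1459217_at, had a mean signal of 36.7, just below the filter, with Et1 signals of 32.2 to 47.6 and control signals of 26.7 to 47.8.

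**Figure D3:**
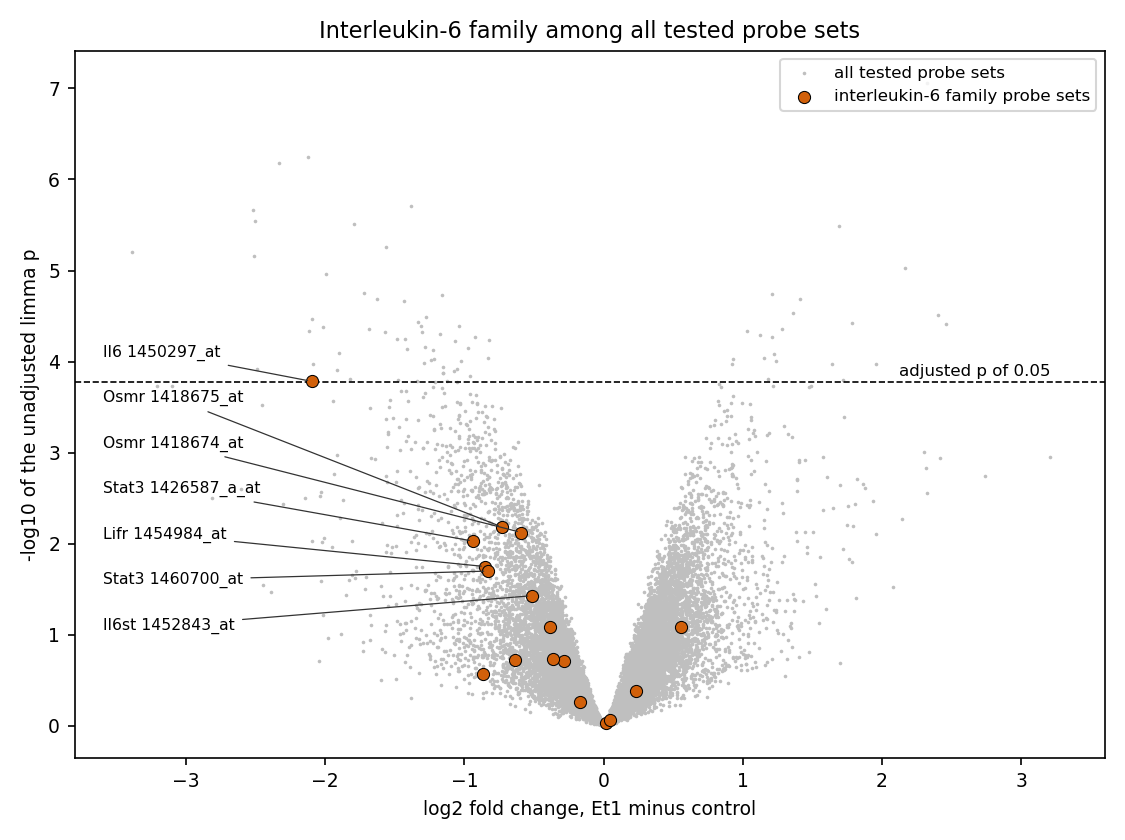
The log2 fold change, Et1 minus control (horizontal axis), against -log10 of the unadjusted limma p (vertical axis) for all 22519 tested probe sets in grey and the 17 of the interleukin-6 family in orange. Il6 lies just above the dashed line at an adjusted p of 0.05, and the 7 labelled probe sets, which have an unadjusted p under 0.05, are all on the lower side.

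Stat3, the transcription factor that carries the signal of gp130 to the nucleus, had 3 tested probe sets that differed among themselves. Probe set 1426587_a_at read 384, 571 and 317 in Et1 replicates 1, 2 and 3, against 978, 913 and 545 in control replicates 1, 2 and 3. Probe set 1460700_at read 276, 375 and 216 in the Et1 arrays and 672, 562 and 335 in the control arrays. In both, Et1 replicate 2 lay above control replicate 3 and every other Et1 signal below every control signal. The log2 fold changes were -0.94 (SE 0.28, 95% confidence interval -1.58 to -0.30, limma adjusted p = 0.231) and -0.83 (SE 0.29, 95% confidence interval -1.50 to -0.17, limma adjusted p = 0.299).

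The 2 arrays that made the Stat3 groups overlap belonged to different spike-in sets, so the difference within each set had to be below 0. The part of the spike-in split in that overlap was not tested. For 1426587_a_at the difference was -0.73 inside the low set and -0.64 inside the high set. Blocked on the set it was -0.69 and was called (limma adjusted p = 0.012), while 1460700_at, at -0.58, was not (limma adjusted p = 0.0531). Over all tested probe sets the blocked fit called 3.85%, and 2.47% as lower. Over the other settings tried the adjusted p of 1426587_a_at ran from 0.0285 to 0.714. Probe set 1424272_at was dimmer and went the other way, with signals of 59.6 to 89.9 in Et1 arrays and 49.0 to 77.0 in control arrays and a log2 fold change of 0.23 (SE 0.27, limma adjusted p = 0.764). This value ran from 0.058 without Et1 replicate 2 and 0.09 without control replicate 3 to 0.35 without Et1 replicate 1 and 0.42 without control replicate 1. The fourth, 1459961_a_at, had a mean signal of 19.2 and was not tested. The mean of the 3 tested probe sets gave a log2 fold change of -0.51 for Stat3 (limma adjusted p = 0.401).

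Socs3, the inhibitor that STAT3 induces and that closes the loop on gp130, had 3 tested probe sets and no call. Probe set 1455899_x_at read 129, 152 and 178 in Et1 replicates 1, 2 and 3, against 241, 177 and 183 in control replicates 1, 2 and 3. Et1 replicate 3 lay between the lower 2 control signals, and the log2 fold change was -0.39 (SE 0.20, 95% confidence interval -0.83 to 0.06, limma adjusted p = 0.475). Probe set 1456212_x_at had signals of 48.0 to 156 in Et1 arrays and 78.7 to 173 in control arrays, with a log2 fold change of -0.64 (SE 0.45, limma adjusted p = 0.605). It was nearer 0 when Et1 replicate 1 was left out, at -0.23, and further from 0 when Et1 replicate 2 was left out, at -1.08, or control replicate 3, at -1.001. Without control replicate 1 the value of 1455899_x_at was -0.24.

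Probe set 1416576_at of Socs3 rested on 1 array. It read 84.1, 125 and 12.4 in Et1 replicates 1, 2 and 3, against 93.8, 106 and 78.6 in control replicates 1, 2 and 3. Its log2 fold change was -0.87 (SE 0.74, limma adjusted p = 0.672), 0.15 without Et1 replicate 3 (limma adjusted p = 0.915) and -1.52 without Et1 replicate 2. Socs3 transcript was therefore lower in the mean of each probe set without a difference beyond the spread between arrays.

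The genes whose profile over the 6 arrays was most like that of Il6 were sought by the root mean square difference between log2 signals, each centred on its own mean, among 11666 genes represented by the tested probe set with the highest mean. Prrt4 was nearest, at 0.264, followed by the monocyte chemokines Ccl2 at 0.309 and Ccl7 at 0.357, and by Igll1 at 0.416. Ccl2 read 193, 200 and 215 in Et1 arrays and 953, 742 and 970 in control arrays, so that both it and Il6 had their lowest control signal in control replicate 2. Lif and Socs3 had no such separation between the groups, and their nearest genes lay closer, from 0.0655 for Abcc5 to 0.071 for Ppfibp2 beside Lif, with Clcn6 and Lingo1 between, and from 0.0465 for Usp54 to 0.0734 for Cd82 beside Socs3, with Ttpal and Parp12 between. This is a description over 6 arrays that share the same 2 groups.

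The rest of the pathway was read from 5 gene lists, in which 0 genes passed limma's threshold at an adjusted p of 0.05 in any tested probe set. The background was 48 calls among 11666 genes taken by the tested probe set with the highest mean, 0.411%. Of 9 other ligands and cofactors of the family 2 were tested. Ctf1, the gene of cardiotrophin-1, had 88.1 ± 21.5 in Et1 arrays and 59.9 ± 17.7 in control arrays (SD, n = 3; log2 fold change 0.57, limma adjusted p = 0.475), and Clcf1, a cytokine that acts through the CNTF receptor, had -0.08 in the probe set with the highest mean. Osm, Il31 and Ebi3 lay below the filter. Of the 4 other receptors Cntfr was the one tested, at 0.059.

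Of the 27 Janus kinases, STAT proteins, phosphatases and inhibitors, 24 genes were tested, 8 with a higher and 16 with a lower mean in Et1 arrays and a median log2 fold change of -0.12, beside 0.05 for all genes. At an unadjusted limma p under 0.05 there were 0 higher and 1 lower, against 6.93% of all 11666 genes higher and 6.53% lower on the same basis. The 1 lower was Socs5, a member of the SOCS family, with 678, 635 and 552 in Et1 replicates 1, 2 and 3, against 809, 744 and 899 in control replicates 1, 2 and 3 (log2 fold change -0.40, limma adjusted p = 0.344). Its other probe set, at -0.48, was called after blocking on the spike-in set (-0.65, limma adjusted p = 0.0195), in a fit that called 3.85% of all tested probe sets. Ptpn2, a phosphatase that acts on Janus kinases and STAT proteins, had a log2 fold change of 0.51 in 1 of 3 tested probe sets, 0.44 in the one with the highest mean and -0.28 in the third (limma adjusted p = 0.264, 0.649 and 0.842). Pias2, of a family of STAT inhibitors, ran from -0.37 to -0.22 over 3 probe sets, and Socs2, another SOCS gene, from 0.09 to 0.49.

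Of 32 genes known to respond to interleukin-6 or STAT3, 22 were tested, 7 with higher and 15 with lower means, and their median was -0.14. Of the 22, 1 was higher and 3 were lower at an unadjusted limma p under 0.05, beside 6.93% and 6.53% of all genes. The 1 higher was Myc, and the 3 lower were Fos, Il4ra and Junb. Junb had a log2 fold change of -0.97 with overlapping groups (limma adjusted p = 0.399). The 10 untested genes lay below the filter, among them the acute-phase genes Hp, Lbp and Fgg. Fos, a subunit of AP-1, read 97.7, 70.8 and 76.0 in Et1 replicates 1, 2 and 3, against 250, 150 and 169 in control replicates 1, 2 and 3 (log2 fold change -1.19, limma adjusted p = 0.0892). Il4ra, the receptor chain for interleukin-4 and interleukin-13, had 123 ± 26.9 in Et1 arrays and 295 ± 121 in control arrays (SD, n = 3) in its probe set with the highest mean. The log2 fold change of that probe set was -1.19 (limma adjusted p = 0.185), and -1.57 without control replicate 3 (limma adjusted p = 0.0293). The other tested Il4ra probe set had overlapping groups and a log2 fold change of -1.33 (SE 0.56, limma adjusted p = 0.395). Myc, a growth regulator, had 770 ± 56.5 in Et1 arrays and 519 ± 54.7 in control arrays (SD, n = 3; log2 fold change 0.57, limma adjusted p = 0.162). The target genes named thus lay on both sides of 0. Blocked on the spike-in set, Fos, Il4ra and Myc were called, at -1.21, -0.92 and 0.54 (limma adjusted p = 0.0234, 0.0209 and 0.0349). That fit called 3.85% of all tested probe sets. Hif1a, the oxygen-sensitive transcription factor, had log2 fold changes from -0.57 to -0.10 over 3 probe sets, and the one with the highest mean, at -0.34, was called with the same block (-0.47, limma adjusted p = 0.0332).

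Of 15 regulators of Il6 transcription or of its messenger RNA, 12 were tested, 5 with higher and 7 with lower means and a median of -0.05. Of the 12, 2 were higher and 1 was lower at an unadjusted limma p under 0.05, beside 6.93% and 6.53% of all genes. Atf3, a stress-induced factor known to repress Il6 in macrophages, read 76.0, 59.8 and 105 in Et1 replicates 1, 2 and 3, against 29.7, 9.41 and 13.8 in control replicates 1, 2 and 3. All control signals were under the filter level, so Atf3 passed through its Et1 signals. Atf3 had a log2 fold change of 2.32 (SE 0.50, limma adjusted p = 0.113), 0.94 with 50 added, and 2.27 when blocked on the spike-in set (limma adjusted p = 0.0486). The blocked fit called 3.85% of all tested probe sets. Arid5a, an RNA-binding protein known to stabilise Il6 messenger RNA, had 95.2 ± 6.55 in Et1 arrays and 47.2 ± 21.9 in control arrays (SD, n = 3; log2 fold change 1.15, limma adjusted p = 0.286), with control replicate 3 alone at 21.9. Nfkbiz and Nfkbia, feedback genes of NF-kappaB, had log2 fold changes of -0.55 and -0.05 in their probe sets with the highest mean, and Nfkbia one of -0.50 in another (limma adjusted p = 0.333, 0.969 and 0.31).

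**Figure D4:**
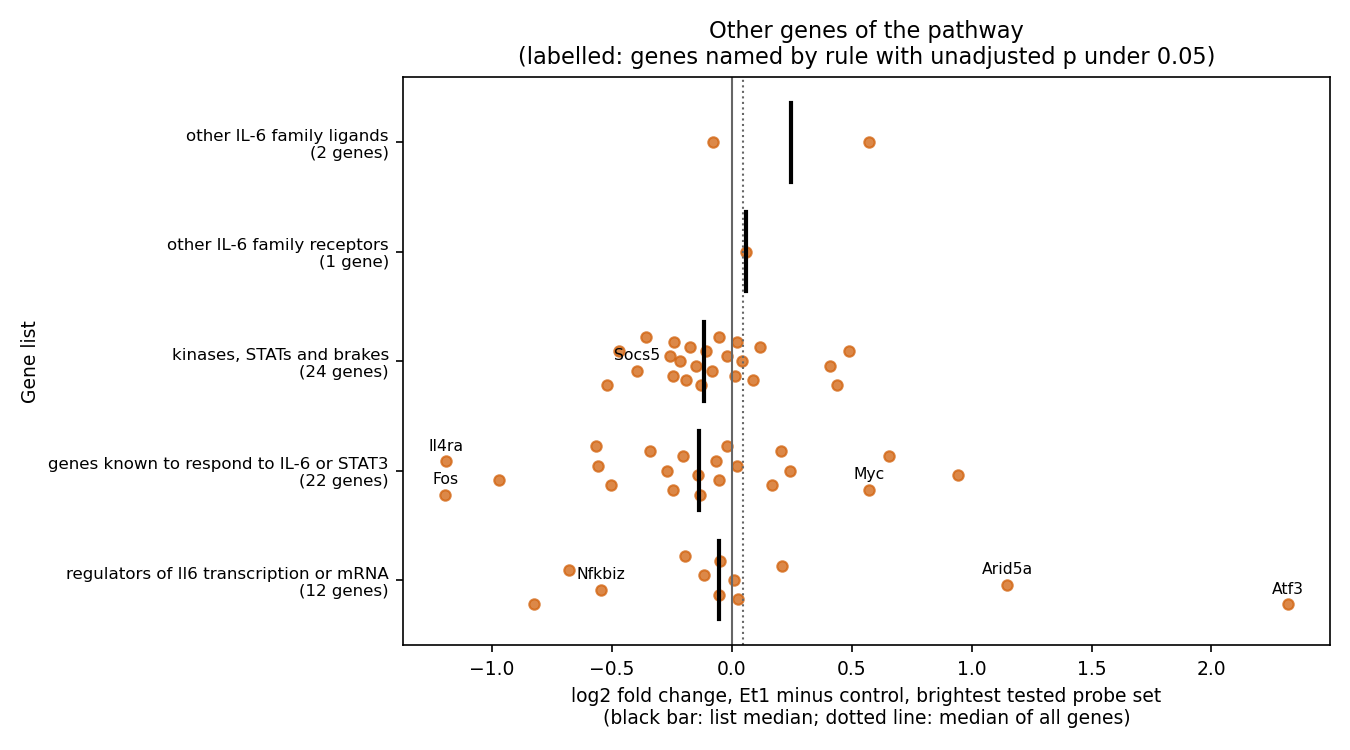
The log2 fold change, Et1 minus control (horizontal axis), of the tested probe set with the highest mean for each gene of the 5 pathway lists (orange points, 1 row per list, spread vertically for display), with a black bar at each list's median and a dotted line at the median of all genes, 0.05. The list medians of the 3 longer lists run from -0.14 to -0.05, and Atf3 at 2.32 and Fos and Il4ra at -1.19 lie at the ends. The labelled genes are those named in the text, other than Junb, whose value here has an unadjusted limma p under 0.05.

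The plot of settings sets the 3 member genes with the smallest p beside each other under every processing choice tried. Il6 was called in 6 of the 14 settings that measured it, including the one reported. It kept its direction in all 14, and the Osmr and Stat3 probe sets with the highest means kept theirs in all 15. Most settings could not turn the direction of Il6 or Osmr. A left-out array could not, since their groups did not overlap, and changing the filter or trend or adding the replicate block leaves every fold change as reported.

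**Figure D5:**
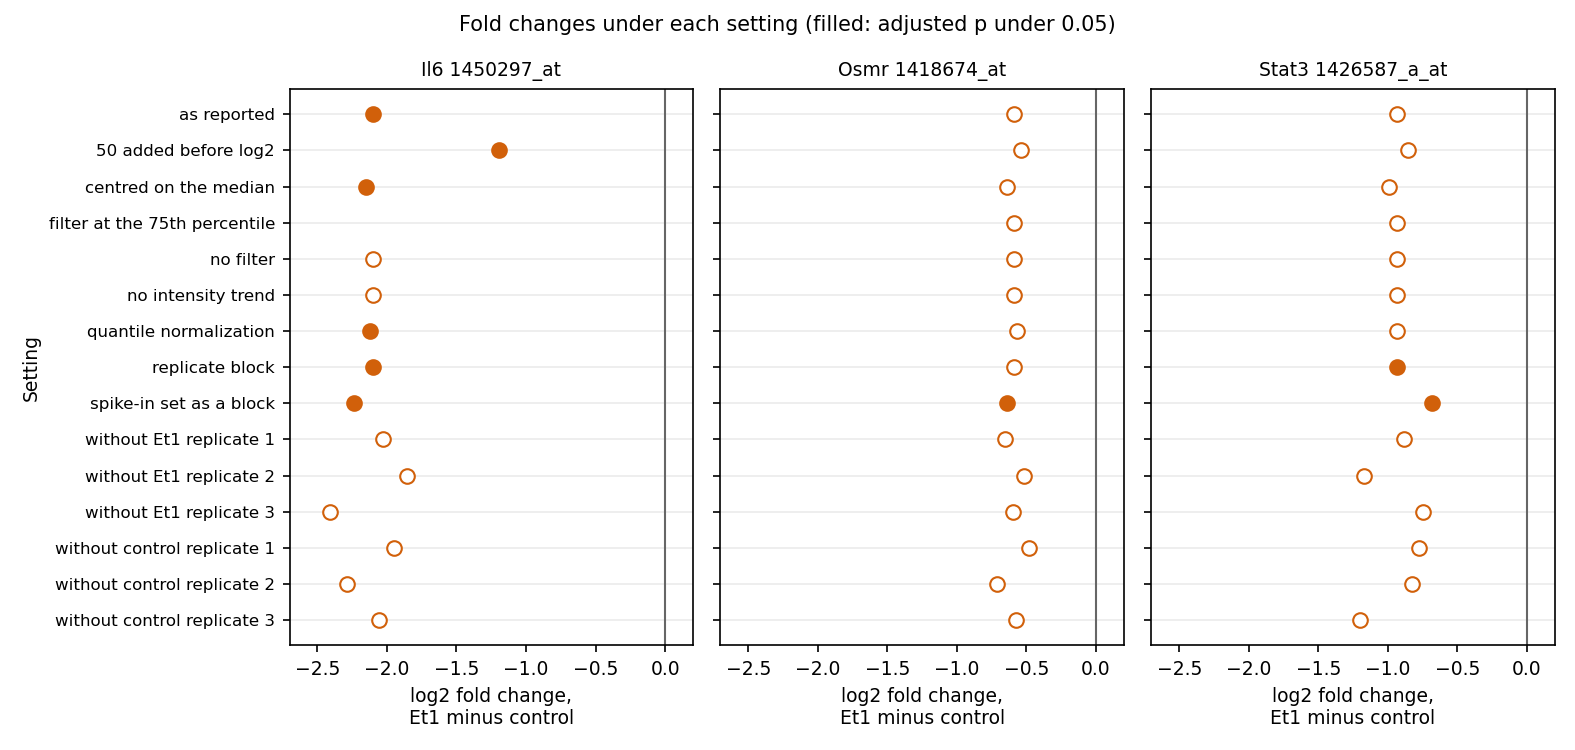
The log2 fold change, Et1 minus control (horizontal axis), of Il6, Osmr and Stat3 in 1 probe set each under every setting (rows), filled where the adjusted p was under 0.05. Il6 stays between -2.41 and -1.85 except at -1.19 with 50 added and has no value under the filter at the 75th percentile, and all values of the 3 genes are below 0.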

How the data were processed

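Total RNA from 6 cultures, 3 with Et1 and 3 control, was labelled with biotin by in vitro transcription and hybridised to Mouse430_2 arrays, per the labels' protocols. The submitters' processing notes name MAS5, without a version, for the deposited linear intensity of each probe set; the authors' target scaling is not known here. The deposited experiment files record identical settings, so they mark no batch.

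Each array was scaled to a common 2% trimmed mean, 4 zeros were replaced by the lowest non-zero signal on the same array, and 64 Affymetrix control probe sets were left out. Log2 signals were fitted with limma 3.58.1 in R 4.3.3 (lmFit, eBayes with an intensity trend, no block), checked on simulated data. Genes were named from the platform annotation. A gene's summary is its tested probe set with the highest mean signal. Every member probe set is described. Of each list, called genes and at most 4 others by smallest unadjusted p are described. Junb is named besides, to complete a count. The members, lists, tests and the spike-in split were chosen with earlier results of these data known. Other settings were quantile normalization, median centring, filtering at the 75th percentile, no filter, 50 added before log2, no trend, the replicate number or the spike-in set as a block, each array left out, and the mean of a gene's probe sets. The series text says cells were split into treated and control cultures, but no label ties equal numbers to 1 culture.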

Additional observations from a re-analysis of the deposited data

How the results depend on the processing

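The count of interleukin-6 family probe sets called, 1 as reported, was 0 with no filter, 0 with a filter at the 75th percentile (which leaves Il6 out), 0 with no intensity trend, 3 when blocked on the spike-in set and 0 to 0 with each array left out. The 78 calls over all tested probe sets became 44 with median centring, 40 with no filter, 7 with no intensity trend, 868 when blocked on the spike-in set and 4 to 229 with each array left out. The pathway lists' 0 calls became 6 when blocked on the spike-in set and 0 to 1 with each array left out. The lists held 4, 1, 52, 41 and 25 tested probe sets, and the fit blocked on the spike-in set called 3.85% of all tested probe sets. For Il6 the adjusted limma p was 0.0816 with no filter and 0.108 with no intensity trend. The sign of values near 0 turned: with median centring Il6ra stood at -0.038 and Il6st probe set 1421239_at at -0.0094. With each array left out Il6ra ran from -0.061 to 0.10, that Il6st probe set from -0.18 to 0.17, Lif from -0.36 to 0.0093 and Socs3 probe set 1416576_at from -1.52 to 0.15. Of 235 recomputed fold changes 213 kept their direction and their side of the threshold. Much of this was fixed in advance, since changing the filter or trend or adding the replicate block leaves each fold change as reported. Also, 16 of the tested family probe sets were not called to begin with. The Il6 call was kept in 5 alternatives and lost in 8. The causes of these shifts were not tested.

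With the replicate number as a block limma called 4 of the 17 family probe sets (Il6, 1 of Osmr and 2 of Stat3), 567 of 22519 probe sets in all, and 3 of the pathway lists (Fos, Il4ra and Egr1). Equal numbers were not shown to pair: the deviations of same-numbered arrays from their group means correlated at -0.12, 0.44 and 0.45, and Et1 replicate 1 correlated best with control replicate 3. The 3 arrays per group and signals near the filter limit what can be seen.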
